A study of Mus musculus with 16 samples.

Results

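The Krüppel-like factors (KLFs) are transcription factors that bind CACCC and GC-rich sequences with zinc fingers at the carboxy terminus. Here 10 *Klf* genes are described in mouse TM4 cells: *Klf2*, *Klf3*, *Klf4*, *Klf5*, *Klf6*, *Klf7*, *Klf9*, *Klf10*, *Klf11* and *Klf13*. They were chosen by symbol and are 10 of the 56748 genes in the counts table. Each symbol matched 1 gene, and all 10 passed the filter on low counts. The choice was made with earlier results of these counts known, and *Klf10* was known to vary with the replicate number, so that pattern is given as a description and not tested.

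KLF proteins fall into groups by the partners they recruit. One group holds activators that use acetyltransferases, another holds repressors that bind CtBP, and a further group, with *Klf10* and *Klf11*, represses through Sin3A and histone deacetylases. *Klf10* and *Klf11* were first known as early genes of transforming growth factor beta (TGF-β) signaling and are also called TGF-β-inducible early genes. *Klf2*, *Klf4* and *Klf6* respond quickly to serum and stress in many cell types, and *Klf9* is a target of the glucocorticoid receptor.

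TM4 is an established cell line with features of Sertoli cells, the somatic cells that nurse the germ cells of the testis. The cells received 2.5 µg of plasmid per well with a lipid reagent, and RNA was taken 24 h later. The plasmid was pcDNA3.1-HA without insert (empty vector, EV, 6 samples), carried the killifish growth factor gene *gdf6Y* (5 samples), or carried its mutant variant *gdf6Ydel9*, labelled del9 (5 samples). The *gdf6Y* samples were compared with each control to find what the growth factor changes, and del9 was compared with EV to see what the mutant plasmid changes. All cells went through the same transfection, no untransfected sample was analysed, and all come from a single cell line. The labels do not say whether replicates were separate transfections, so p-values cover at most the spread between these samples, which may be technical. Standard errors also depended on the method and the filter. That of *Klf10* was smaller in the main fit than in some other settings, given in the last section.

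Between 21486850 and 26444903 reads per sample were counted on genes. Of 12 Sertoli cell markers, 5 had a mean count of at least 10, while *Wt1* and *Dmrt1* had no read. Summed normalized counts of these 12 markers were 1682 to 1769.5 with EV, 1499 to 1619.97 with *gdf6Y* and 1570.4 to 1736 with del9. The *gdf6Y* range lay below the EV range, mostly through *Gata4*, which fell from a mean of 831 with EV to 722 with *gdf6Y* (log2 fold change -0.20, edgeR, adjusted p = 9.98e-05) and was the 1 marker of the list that was called. Of 5 granulosa cell markers 3 had no read, among them *Foxl2*, and their sum was 398 to 562 with EV, 388 to 614 with *gdf6Y* and 528 to 725 with del9. This sum was mostly *Fst*, which rose with del9 against EV (log2 fold change 0.44, edgeR, adjusted p = 2.13e-18). *Fst* fell with *gdf6Y* against del9 by 0.29 on the log2 scale (edgeR, adjusted p = 2.26e-06). The latter call was lost in 3 of 19 other settings, among them DESeq2 (adjusted p up to 0.725 over these settings). Summed counts of 4 peritubular or smooth muscle markers were 4478 to 4714 with EV, 4710.1 to 5057 with *gdf6Y* and 4571 to 4839.8 with del9. Summed counts of 5 endothelial markers were between 6.80 and 19.5 per sample, with ranges of the groups that overlapped. The part of these markers in the *Klf* results was not tested.

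Levels of different genes were compared per exonic length, as reads per kilobase of exon scaled to the library size (RPKM), in the EV samples. *Klf6*, which is also a tumor suppressor, was the highest with an RPKM level of 13.4 ± 0.369 (SD, n = 6). *Klf5*, a factor of proliferating epithelia, followed at an RPKM level of 10.0 ± 0.356 (SD, n = 6). *Klf10* had an RPKM level of 9.73 ± 0.684 (SD, n = 6). These values place *Klf10* in the upper part of the family, next to *Klf13*, a regulator known from lymphocytes, at an RPKM level of 9.57 ± 0.223 (SD, n = 6). *Klf7*, known from sensory neurons, stood at an RPKM level of 6.29 ± 0.142 (SD, n = 6), and *Klf9* at 5.79 ± 0.475 (SD, n = 6). *Klf4*, one of the reprogramming factors, had an RPKM level of 5.19 ± 0.364 (SD, n = 6). The lowest members were *Klf3* with an RPKM level of 3.53 ± 0.208, *Klf11* with 2.98 ± 0.184 and *Klf2* with 2.86 ± 0.165 (SD, n = 6 each). In this order the sample ranges of *Klf5* and *Klf10*, of *Klf10* and *Klf13*, of *Klf7* and *Klf9*, of *Klf9* and *Klf4*, and of *Klf11* and *Klf2* overlapped. The other neighbors did not overlap.

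**Figure D1:**
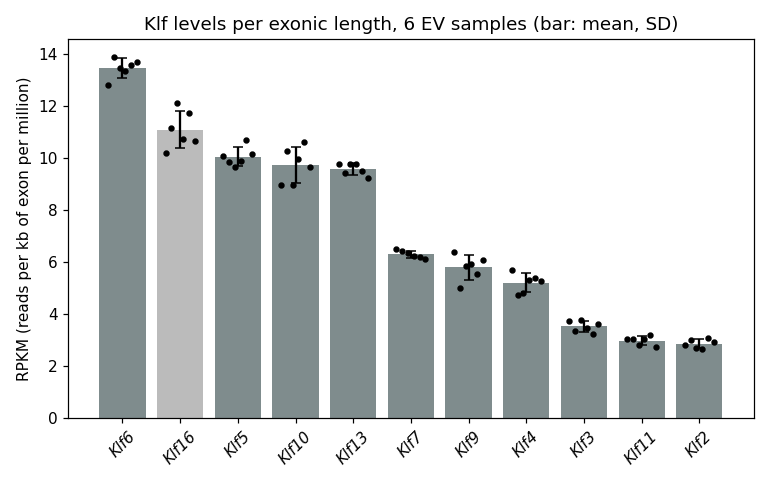
RPKM levels of the expressed *Klf* genes in the 6 EV samples (dots), with the mean (bar, from 0) and the SD. *Klf6* is the highest at 13.4 and *Klf2* the lowest at 2.86, and *Klf16* (light bar) is expressed but is not among the 10 genes described.

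Most of the other *Klf* genes were silent in these cells. *Klf16*, a GC box-binding repressor, was the exception with an RPKM level of 11.1 ± 0.717 (SD, n = 6) in EV samples. No read was counted on *Klf8* or *Klf14* in the 16 samples, which allows a level of up to 0.0076 CPM, from the limit of 3 reads that a count of 0 allows over all samples. *Klf1*, *Klf12*, *Klf15*, *Klf17* and the pseudogene *Klf18* had between 3 and 8 reads each over the 16 samples. The floor and the counts cover counting error only.

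*Klf10* was higher with *gdf6Y* than with either control. It encodes a repressor with a Sin3-interacting domain, and lies at chr15:38291703-38300959 on the minus strand of GRCm39. Its normalized counts, that is reads scaled to a common library size, were 924.7 at the lowest, 1014 at the median and 1099.0 at the highest over the EV samples. With *gdf6Y* they were 1090.1, 1294, 1194, 1243 and 1237 in replicates 1 to 5. With del9 they were 924, 1056, 925, 965 and 1081 in replicates 1 to 5. Every *gdf6Y* sample was above every del9 sample, and 4 of 5 were above every EV sample, with replicate 1 between the EV samples.

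The mean of *Klf10* over the EV samples was 1006 ± 70.7 (SD, n = 6). It was 1212 ± 76.7 (SD, n = 5) over the *gdf6Y* samples, and 990.1 ± 73.9 (SD, n = 5) over the del9 samples. Against EV, the log2 fold change with *gdf6Y* was 0.27 ± 0.037 (SE), a fold of 1.21, with an adjusted p = 2.98e-10 by the quasi-likelihood test of edgeR, adjusted over all genes tested. Against del9, the log2 fold change with *gdf6Y* was 0.29 ± 0.041 (SE), a fold of 1.23 (edgeR, adjusted p = 3.82e-10). With at least 10 counts required in every sample, the adjusted p was 0.0036 against EV and 0.0106 against del9 (edgeR). Between del9 and EV, *Klf10* differed by a log2 fold change of -0.019 ± 0.038 (SE) (edgeR, adjusted p = 0.824). The 3 comparisons share samples, so they are not independent of each other. In bulk RNA, a change per cell and a change in the share of cells that took up plasmid cannot be told apart.

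**Figure D2:**
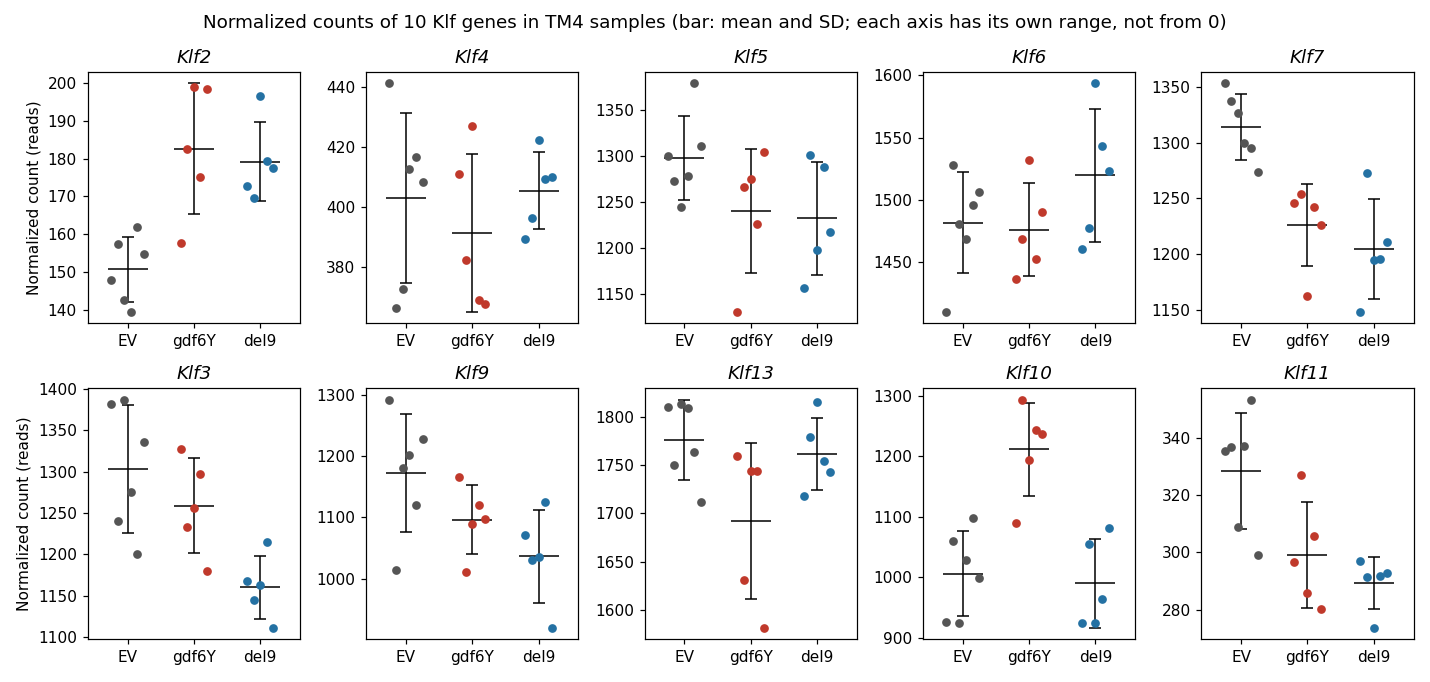
Normalized counts (reads, vertical axes with a range of their own per gene, not from 0) of the 10 *Klf* genes in each sample (dots, in order of the replicate number), with the mean and SD per group. *Klf10* is higher in all 5 *gdf6Y* samples than in all 5 del9 samples, and *Klf2* is higher in all 5 del9 samples than in all 6 EV samples.

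*Klf2* was higher with both plasmids that carried an insert than with EV. *Klf2* encodes an activator that is induced through MEK5, ERK5 and MEF2 factors in endothelial cells. It lies at chr8:73072726-73075502 on the plus strand of GRCm39. Its normalized counts were 140 to 162 with EV, with a median of 151. With *gdf6Y* they were 158, 183, 199, 175 and 198 in replicates 1 to 5, and with del9 they were 173, 169.6, 197, 179 and 177. All del9 samples and 4 of 5 *gdf6Y* samples were above every EV sample, while *gdf6Y* and del9 overlapped.

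Against EV, the log2 fold change of *Klf2* was 0.28 ± 0.078 (SE) with *gdf6Y* (edgeR, adjusted p = 0.0115). With del9 the log2 fold change against EV was 0.25 ± 0.078 (SE) (edgeR, adjusted p = 0.0180). Between *gdf6Y* and del9, *Klf2* differed by a log2 fold change of 0.033 ± 0.079 (SE) (edgeR, adjusted p = 0.913). *Klf2* had the fewest reads of the 10 genes, and its calls against EV did not hold in every fit. With *gdf6Y* it was lost without replicate 3 (adjusted p = 0.0780) or replicate 5 (adjusted p = 0.0756) of *gdf6Y*, and with a correction for gene length (adjusted p = 0.0641). With del9 it was lost without replicate 3 of del9 (adjusted p = 0.101) or replicate 4 of EV (adjusted p = 0.0592), and with the length correction (adjusted p = 0.0966). *Klf2* lies over its whole length of 2777 bases opposite *Eps15l1*, and the reads were counted by strand. The log2 fold change of *Eps15l1*, chosen after the values were seen, was -0.0048 with *gdf6Y* and 0.0066 with del9 against EV (edgeR, adjusted p = 0.951 and 0.958).

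The sequence before the start of *Klf2* is shown as that of a gene that rose with both inserts. That of *Klf11* is shown as an example of a gene that fell with del9. *Klf3*, *Klf7* and *Klf9* also fell with del9, and their sequences are not shown. The sequences are from RefSeq (GRCm38.p6), whose table held 250 bases before and 50 bases after the start of 8 of the 10 genes, all but *Klf5* and *Klf10*. Each was found once in GRCm39, and the positions below are in that build. The stretches end before the first base of the gene in the GENCODE annotation, which starts 180 bases upstream of the RefSeq start in *Klf2* and 97 bases upstream in *Klf11*. In *Klf2* (chr8:73072656-73072725, plus strand), the capitals mark 2 GC boxes. In *Klf11* (chr12:24701120-24701272, plus strand), they mark overlapping GC boxes on the opposite strand and a palindromic GC-rich Smad site:
Klf2: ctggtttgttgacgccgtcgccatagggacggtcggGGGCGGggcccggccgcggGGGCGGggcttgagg
Klf11: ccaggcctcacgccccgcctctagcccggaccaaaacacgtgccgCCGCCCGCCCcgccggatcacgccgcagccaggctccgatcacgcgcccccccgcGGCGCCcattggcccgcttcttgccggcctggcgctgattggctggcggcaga

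Nearer to the RefSeq start, 30 bases of each gene are shown around a further match. Both stretches lie after the GENCODE start, inside the annotated gene. In *Klf2* (chr8:73072778-73072807) the capitals mark a MEF2 site, at 118 bases before the RefSeq start. In *Klf11* (chr12:24701332-24701361) they mark a Smad site that runs into a GC box:
Klf2: tataccgcggCTAAATTTAGgctgagcccg
Klf11: cgctccctccgtGGCGCCCCGCCCctcccg

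Motifs were searched on both strands of the 300 bases. In *Klf3*, *Klf7* and *Klf9* the GENCODE gene starts 989, 960 and 403 bases upstream of the RefSeq start. Their windows thus lie wholly inside the annotated gene. The GC box GGGCGG was in 7 of the 8 *Klf* promoters and in 35.7% of all 32851 promoters of the table. The CACCC box (CACCC), bound by KLF proteins themselves, was in 5 of 8 and in 57.5% of all. The GC-rich Smad site GGCGCC was in *Klf3* and *Klf11* and in 11.9% of all promoters, and the Smad box GTCTG was in *Klf3* alone and in 49.6% of all. The MEF2 site was in *Klf2* alone and in 3.19% of all, and the serum response element was in none of the 8 and in 1.63% of all. The CRE core (TGACG) was in 5 of 8 and in 20.8% of all, and the CCAAT box (CCAAT) in 4 of 8 and in 37.4% of all. The member promoters were between 58.3% and 77.7% G and C, above the median of 52.7% over all promoters. A match describes the letters in the window and not a bound site.

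*Klf11*, a close relative of *Klf10*, was lower with del9 than with EV. Its normalized counts were 299 to 353 with EV, with a median of 336. With *gdf6Y* they were 297, 327, 286, 306 and 280.03, and with del9 they were 297, 291, 274, 292 and 293 in replicates 1 to 5. All del9 samples were below every EV sample, and *gdf6Y* overlapped with both. *Klf11* fell with del9 against EV by 0.18 ± 0.059 (SE) on the log2 scale (edgeR, adjusted p = 0.0286). With *gdf6Y* the log2 fold change against EV was -0.14 ± 0.059 (SE) (edgeR, adjusted p = 0.211), and against del9 it was 0.051 ± 0.064 (SE) (edgeR, adjusted p = 0.783). In all 5 same-numbered pairs *Klf11* was lower in the *gdf6Y* sample than in the EV sample, with differences of -0.34 to -0.043 on the log2 scale. The adjusted p was 0.0563 with the replicate block and 0.0222 with the block and the gene length correction. The call with del9 was lost without replicate 3 of del9 (adjusted p = 0.114), and without replicate 1, 4 or 5 of EV (adjusted p = 0.0532, 0.0664 and 0.0807).

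*Klf3* and *Klf9* were lower with del9 than with EV. *Klf3* encodes a repressor that recruits CtBP. Its normalized counts were 1200.4 to 1387 with EV, with a median of 1305. With *gdf6Y* they were 1328, 1233, 1257, 1297 and 1180.2, and with del9 they were 1168, 1145, 1163, 1216 and 1111 in replicates 1 to 5. In 4 of 5 del9 samples *Klf3* was below every EV sample, and *gdf6Y* overlapped with EV. *Klf3* fell with del9 against EV by 0.17 ± 0.035 (SE) on the log2 scale (edgeR, adjusted p = 1.30e-04). With *gdf6Y* against EV, its log2 fold change was -0.048 ± 0.036 (SE) (edgeR, adjusted p = 0.570).

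Between *gdf6Y* and del9, the log2 fold change of *Klf3* was 0.12 ± 0.040 (SE) (edgeR, adjusted p = 0.117). In all 5 same-numbered pairs, *Klf3* was higher in the *gdf6Y* sample, by 0.087 to 0.18 on the log2 scale. Once the replicate number was a block, the log2 fold change was 0.12 and passed the threshold (edgeR, adjusted p = 0.0164), and it also did so with the correction for gene length (adjusted p = 0.0430). On the same strand, *Klf3* overlaps the gene *C230096K16Rik*, with a mean of 7.19 counts, and reads on both were discarded in counting.

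*Klf9* encodes a small repressor of the Sin3-binding group. Its normalized counts were 1014 to 1292 with EV, with a median of 1191. With *gdf6Y* they were 1166, 1011, 1088, 1119.8 and 1096, and with del9 they were 1072, 1029.8, 1034, 1125 and 919 in replicates 1 to 5. The groups overlapped, and replicate 2 of EV had the lowest EV count. *Klf9* fell with del9 against EV by 0.18 ± 0.036 (SE) on the log2 scale (edgeR, adjusted p = 7.00e-05). With *gdf6Y* against EV, its log2 fold change was -0.095 ± 0.037 (SE) (edgeR, adjusted p = 0.136), and the adjusted p was 0.0136 without replicate 2 of EV and 0.0489 without replicate 1 of *gdf6Y*. Between *gdf6Y* and del9, the log2 fold change was 0.087 ± 0.041 (SE) (edgeR, adjusted p = 0.523).

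*Klf7* was lower with del9 than with EV. Its normalized counts were 1274 to 1353 with EV, with a median of 1313. With *gdf6Y* they were 1246, 1254, 1162, 1242 and 1226, and with del9 they were 1148, 1273, 1195, 1196 and 1211 in replicates 1 to 5. Neither the *gdf6Y* nor the del9 samples overlapped with EV, although replicate 2 of del9 was less than 1 count below the lowest EV sample. *Klf7* fell with del9 by 0.12 ± 0.035 (SE) on the log2 scale (edgeR, adjusted p = 0.00777). With *gdf6Y* the log2 fold change against EV was -0.10 ± 0.036 (SE) (edgeR, adjusted p = 0.0819). Once the replicate number was a block, this log2 fold change was -0.11 and passed the threshold (edgeR, adjusted p = 0.0223). It also passed with DESeq2 (adjusted p = 0.0387), with filterByExpr (adjusted p = 0.0393) and with at least 10 counts in every sample (adjusted p = 0.0401).

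*Klf4*, *Klf5*, *Klf6* and *Klf13* did not pass the threshold in any comparison. *Klf4* had between 367 and 441 normalized counts with EV, 368 to 427 with *gdf6Y* and 389 to 422 with del9. *Klf5* had 1244 to 1379 with EV, 1131 to 1304 with *gdf6Y* and 1156 to 1301 with del9. *Klf6* had 1409.8 to 1528 with EV, 1436 to 1532 with *gdf6Y* and 1460.3 to 1594 with del9. The groups overlapped in each of these genes. *Klf13* had 1712 to 1813 with EV, 1581 to 1759 with *gdf6Y* and 1718 to 1816 with del9, again with overlap. Over the 3 comparisons, the log2 fold changes of these genes lay between -0.071 for *Klf5*, with del9 against EV, and 0.040 for *Klf6*, with del9 against EV. Their standard errors were between 0.032 for *Klf13* and 0.057 for *Klf4*.

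**Figure D3:**
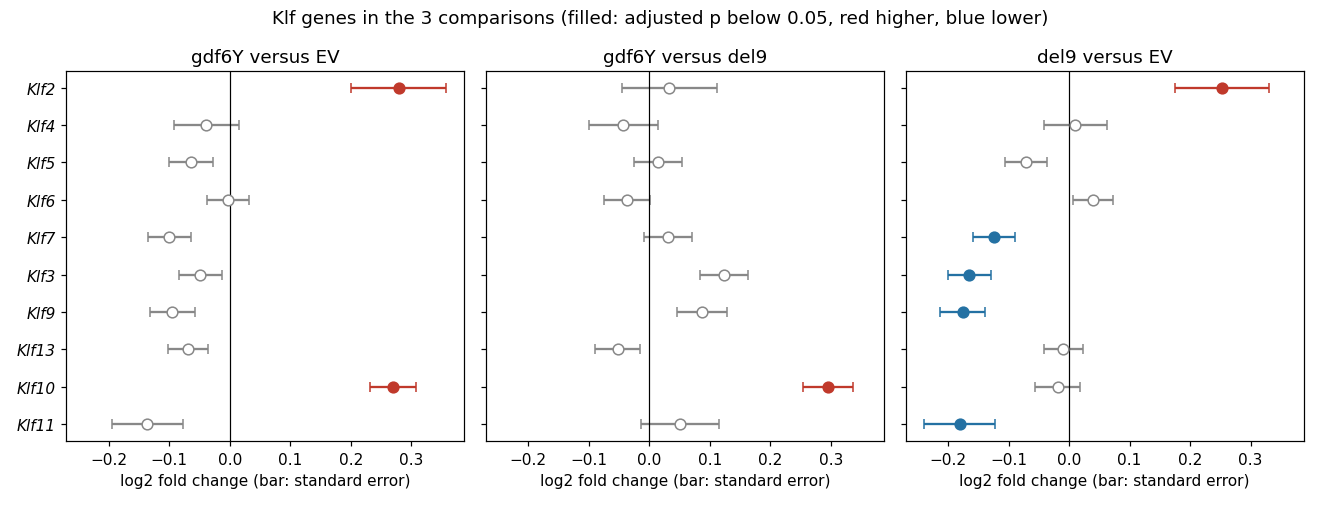
Log2 fold changes of the 10 *Klf* genes in the 3 comparisons (horizontal axis, log2 scale, with the standard error), filled where the adjusted p is below 0.05. *Klf10* is filled in both comparisons of *gdf6Y* (0.27 and 0.29), *Klf2* in both comparisons with EV, and *Klf3*, *Klf7*, *Klf9* and *Klf11* are lower with del9 than with EV.

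Of the 10 *Klf* genes, 2 rose and 0 fell with *gdf6Y* against EV in edgeR's test. Among all genes tested in this comparison, 1.7% were called higher and 3.38% lower, or 4.29% and 8.58% of genes whose mean count was 100 or more, where all 10 lie. At an unadjusted p below 0.05, 4 *Klf* genes were lower, *Klf7*, *Klf9*, *Klf11* and *Klf13*. The share of all genes at an unadjusted p was not computed, here or below. Such counts therefore cannot be compared with the shares at an adjusted p. *Klf7* was the 1 member whose groups did not overlap and were lower, against 3.29% of genes of that mean count, and 0 members were higher in this way, against 3.03%. DESeq2 called 2 members, *Klf10* higher and *Klf7* lower, and gave *Klf2* no adjusted p. Once the replicate number was a block, edgeR called 3, *Klf2*, *Klf10* and *Klf7*. The median log2 fold change of the 10 genes was -0.056, against -0.0021 over all genes tested.

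Against del9, *Klf10* alone was called with *gdf6Y*, 1 of 10 genes, and 0 were lower in edgeR's test. Of all genes tested, 0.599% were called higher and 0.41% lower, or 0.933% and 1.03% at a mean count of at least 100. At an unadjusted p below 0.05, 3 members were higher, *Klf10*, *Klf3* and *Klf9*, and 0 were lower, again with no share over all genes. DESeq2 called *Klf10* alone, and the block called 2, *Klf10* and *Klf3*. *Klf10* was the 1 member whose groups did not overlap, which held for 0.814% of genes of that mean count in this direction, and 0 members were lower without overlap, against 1.64%. The median log2 fold change was 0.031, against 0.0098 over all genes tested.

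With del9 against EV, 1 member rose, *Klf2*, and 4 fell, *Klf3*, *Klf7*, *Klf9* and *Klf11*. Of all genes tested, 4.82% were called higher and 4.43% lower, or 12.3% and 9.4% at a mean count of at least 100. With total counts in place of TMM, the split over all genes moved from 1263 higher and 1162 lower to 863 higher and 1492 lower. DESeq2 called the same 5 members in the same directions. The groups did not overlap in *Klf2*, higher, nor in *Klf7* and *Klf11*, lower, against 5.48% and 3.55% of genes of that mean count. The median log2 fold change was -0.045, against -0.0054 over all genes tested.

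*Klf10* differed between replicate numbers in a similar way in EV and del9, and in part so in the *gdf6Y* samples. In number 1 it had 926 normalized counts with EV, 1090.1 with *gdf6Y* and 924 with del9. In number 2 it had 1059.6 with EV, 1294 with *gdf6Y* and 1056 with del9. In number 3 it had 924.7 with EV, 1194 with *gdf6Y* and 925 with del9. Numbers 1 and 3 were thus low and number 2 was high in both controls, and number 1 was also the lowest *gdf6Y* sample. In number 4 it had 1029 with EV, 1243 with *gdf6Y* and 965 with del9, and in number 5 it had 1099.0, 1237 and 1081. Number 5 was thus the highest in both controls, but with *gdf6Y* it was below numbers 2 and 4. The difference between the *gdf6Y* sample and its EV partner was 0.17 to 0.37 on the log2 scale, and that to its del9 partner 0.19 to 0.37, higher in 5 of 5 pairs each. Between del9 and EV partners, *Klf10* differed by -0.093 to 0.00046. Once the replicate number was a block, the log2 fold change of *Klf10* was 0.27 ± 0.035 (SE) against EV and 0.30 ± 0.035 (SE) against del9. *Klf10* was known beforehand to vary with this number, so these values are a description and their p-values are left out.

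**Figure D4:**
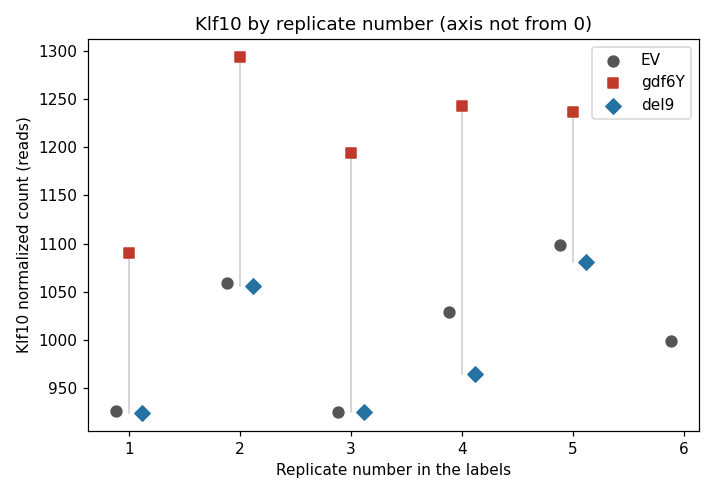
*Klf10* normalized counts (reads, axis not from 0) by the replicate number of the labels in the EV (circles), *gdf6Y* (squares) and del9 (diamonds) samples, with a line between the lowest and highest of a number. Among numbers 1 to 5 the *gdf6Y* sample is the highest of each number, and EV replicate 6 has no partner.

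Of the within-group spread of *Klf10* on the log2 scale, 87.2% lay between the numbers. Over the 10075 genes whose mean count was 100 or more, the median of this share was 46.9%, with quartiles of 30.7% and 64.9%. *Klf10* was known beforehand to vary with the number, so its place among these genes is a description and not a test. Among the other members the share was 72.4% for *Klf3*, 67.9% for *Klf9*, 64.6% for *Klf6* and 23.4% for *Klf4*, the lowest. *Klf3* and *Klf9* deviated from their group means the other way. The mean deviation in number 1 was -0.12 for *Klf10*, 0.061 for *Klf3* and 0.10 for *Klf9* on the log2 scale. In number 5 it was 0.097 for *Klf10*, -0.088 for *Klf3* and -0.072 for *Klf9*. The labels give no date or batch for a number, so what the samples of a number share is not known.

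Over the 15 samples with numbers 1 to 5, deviations of *Klf10* from the group means correlated with those of *Klf3* at r = -0.80 and of *Klf9* at r = -0.71. The correlation with *Klf5* was r = 0.62, and with *Klf11* it was r = 0.51. These are descriptions over samples that share a number, and no test was made. Among the 10074 other genes of that mean count, genes with deviations most like those of *Klf10* included *Zfp263* (r = 0.91), *1110059E24Rik* (r = 0.90), *Zdhhc2* (r = 0.90) and *Tmem209* (r = 0.90). Over all 16 samples, with the groups left in, the levels most like that of *Klf10* were those of *P4ha3* (r = 0.90), *Shox2* (r = 0.89), *Tmem65* (r = 0.88), *Csnk1g3* (r = 0.87) and *Ctxnd1* (r = 0.87).

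**Figure D5:**
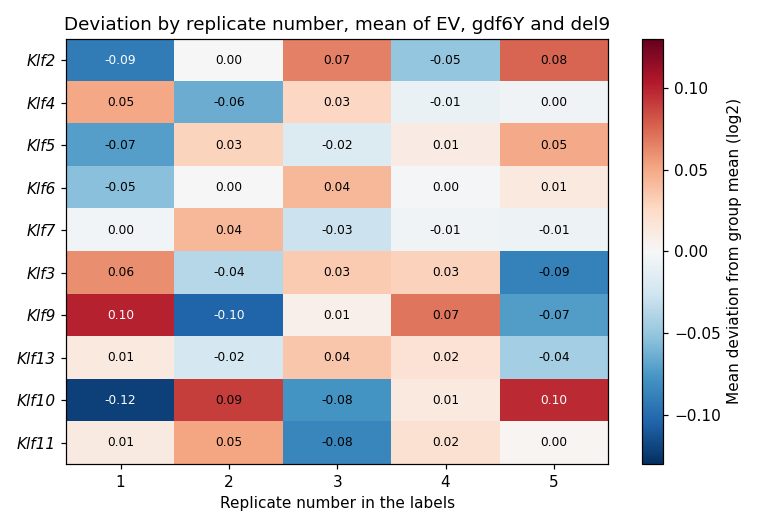
Mean deviation from the group mean (color, log2 scale) of the 10 *Klf* genes by replicate number, over the EV, *gdf6Y* and del9 sample of each number. *Klf10* is low in number 1 (-0.12) and high in number 5 (0.097), and *Klf3* and *Klf9* are high in number 1 and low in number 5.

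*Klf16* and the SP genes, close relatives of the KLFs that bind the same GC boxes, were measured in the same samples. *Klf16* rose with del9 against EV (log2 fold change 0.14, edgeR, adjusted p = 0.00698), and the call was lost without replicate 1 of EV (adjusted p = 0.0602) and with the gene length correction, with and without the block (adjusted p up to 0.159). Its log2 fold change with *gdf6Y* was 0.049 against EV and -0.090 against del9 (edgeR, adjusted p = 0.570 and 0.596). Of 8 SP genes tested, *Sp1* and *Sp4* fell with both inserts against EV. Among all genes whose mean count was 100 or more, 8.58% were called lower with *gdf6Y* and 9.4% with del9 against EV. *Sp1* fell by 0.15 with *gdf6Y* and by 0.13 with del9 on the log2 scale (edgeR, adjusted p = 2.76e-05 and 6.81e-05). *Sp4* fell by 0.19 and by 0.31 (edgeR, adjusted p = 0.0274 and 9.94e-06), and its call with *gdf6Y* was lost in 6 of 11 fits that left out 1 library. *Sp2* rose with del9 (log2 fold change 0.12, edgeR, adjusted p = 0.0462) and lost its call in 8 of 11 such fits. *Sp3* and *Sp8* were not called, no read was counted on *Sp5*, and *Sp6*, *Sp7* and *Sp9* had at most 3 reads in any sample.

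In TGF-β signaling, the pathway that induces *Klf10*, 1 of 15 genes tested rose and 1 fell with *gdf6Y* against EV. Against del9, 3 of 15 rose and 1 fell, where 0.933% and 1.03% of all genes whose mean count was 100 or more were called higher and lower. With del9 against EV, 1 rose and 1 fell in edgeR's test, and DESeq2 called 0. The shares over all genes of that mean count were 4.29% and 8.58% with *gdf6Y* against EV, and 12.3% and 9.4% with del9 against EV. The medians of the log2 fold changes of the 15 genes were 0.019, 0.017 and -0.0087. *Smad7*, an inhibitory Smad and a reported target of KLF proteins, rose with *gdf6Y* by a log2 fold change of 0.42 against EV and 0.35 against del9 (edgeR, adjusted p = 1.48e-19 and 5.05e-12). *Tgfbr2*, the TGF-β type II receptor, fell with *gdf6Y* by 0.13 against EV and by 0.14 against del9 on the log2 scale (edgeR, adjusted p = 9.98e-05 and 0.00159). *Skil*, a feedback inhibitor of Smads, rose with *gdf6Y* against del9 (log2 fold change 0.12, edgeR, adjusted p = 0.0268). *Ccn2* fell and *Junb* rose with del9 against EV, *Junb* with a log2 fold change of 0.12 (edgeR, adjusted p = 0.00865), lost in 7 of 20 other settings (adjusted p up to 0.224).

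Of 16 serum immediate-early genes, the class to which *Klf2*, *Klf4* and *Klf6* also belong, 8 rose and 1 fell with del9 against EV. DESeq2 called 6 of them higher and 0 lower. Of all genes whose mean count was 100 or more, edgeR called 12.3% higher and 9.4% lower in this comparison. *Fosl1* rose by a log2 fold change of 0.27 (adjusted p = 2.53e-14), *Jun* by 0.23 (adjusted p = 8.50e-09) and *Ier2* by 0.25 (adjusted p = 3.69e-07) in edgeR's test. With *gdf6Y* against EV, 1 rose, *Fosl1* (log2 fold change 0.16, edgeR, adjusted p = 2.44e-04), and 2 fell, *Dusp1* and *Ier3*, while DESeq2 called 2 higher, *Fosl1* and *Srf*, and 0 lower. Against del9, 1 fell with *gdf6Y*, *Jun*, by 0.23 on the log2 scale (edgeR, adjusted p = 1.74e-06). This call was lost in 2 of 19 other settings, among them filterByExpr (adjusted p up to 0.122). Of all genes of that mean count, 4.29% were called higher and 8.58% lower with *gdf6Y* against EV, and 0.933% and 1.03% against del9. The medians of the 16 genes were 0.061 and -0.091 for *gdf6Y* against EV and del9, and 0.14 for del9 against EV. *Klf2* also rose with del9 against EV, while *Klf4* and *Klf6* were not called.

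Of 7 glucocorticoid genes, the receptor and targets like *Klf9*, 1 rose and 3 fell with del9 against EV, where *Klf9* also fell. Among all genes whose mean count was 100 or more, 12.3% were called higher and 9.4% lower with del9 against EV. These shares were 4.29% and 8.58% with *gdf6Y* against EV, and 0.933% and 1.03% with *gdf6Y* against del9. *Per1* fell by 0.24 (adjusted p = 1.23e-09) and *Sgk1* by 0.22 (adjusted p = 4.05e-05) on the log2 scale in edgeR's test. *Dusp1*, which belongs to both lists, fell by 0.23 (edgeR, adjusted p = 1.22e-06), but was not called by DESeq2. *Fkbp5* rose (log2 fold change 0.089, edgeR, adjusted p = 0.0335) and lost its call in 7 of 11 fits that left out 1 library. With *gdf6Y* against EV, *Per1* fell by 0.18 (adjusted p = 1.66e-05) and *Dusp1* by 0.16 (adjusted p = 0.00586) on the log2 scale in edgeR's test, the latter lost in 9 of 20 other settings (adjusted p up to 0.423). The medians were -0.10 with *gdf6Y* and -0.22 with del9 against EV, and 0.081 with *gdf6Y* against del9, where edgeR called 0 of 6 genes, 4 had an unadjusted p below 0.05 and DESeq2 called 0.

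Of 7 MEK5-ERK5-MEF2 genes, which act upstream of *Klf2* and *Klf4*, 2 fell with each insert against EV. In the 3 comparisons, 0 were higher by edgeR or DESeq2, and 0 were higher at an unadjusted p below 0.05. Among all genes whose mean count was 100 or more, 4.29% were called higher and 8.58% lower with *gdf6Y* against EV. These shares were 12.3% and 9.4% with del9 against EV, and 0.933% and 1.03% with *gdf6Y* against del9. *Map3k2* fell by 0.16 with *gdf6Y* and by 0.15 with del9 on the log2 scale (edgeR, adjusted p = 9.34e-05 and 1.05e-04). *Mef2a* fell by 0.11 and by 0.15 (edgeR, adjusted p = 0.00530 and 2.53e-05). Its call with *gdf6Y* was lost without replicate 5 of *gdf6Y* (adjusted p = 0.0732) and with the gene length correction, with and without the block (adjusted p up to 0.488). The medians were -0.084 with *gdf6Y* and -0.039 with del9 against EV. *Klf2* rose in these comparisons, and *Klf4* was not called.

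Among 11 co-repressors and co-activators of KLF proteins, 2 rose and 2 fell with *gdf6Y* against EV, and 4 rose and 2 fell with del9 against EV. Of all genes whose mean count was 100 or more, 4.29% were called higher and 8.58% lower with *gdf6Y*, and 12.3% and 9.4% with del9. The acetyltransferase *Ep300* fell by 0.24 and by 0.15 on the log2 scale (edgeR, adjusted p = 2.89e-12 and 8.75e-06). Its relative *Crebbp* fell by 0.21 and by 0.13 (edgeR, adjusted p = 1.70e-04 and 0.0244), the latter lost in 4 of 11 fits that left out 1 library. *Ctbp2*, a partner of *Klf3*, had log2 fold changes of 0.11 and 0.13 (edgeR, adjusted p = 0.0410 and 0.00331), the former lost in 6 of 11 such fits, and *Ctbp1* rose with del9 (log2 fold change 0.11, edgeR, adjusted p = 0.00146). The medians were 0.034 and 0.056. Of 9 ubiquitin ligases of KLF proteins, *Fbxw7* fell with *gdf6Y* (adjusted p = 0.0468) and *Itch* with del9 (adjusted p = 0.0303) against EV in edgeR's test, lost in 9 and 6 of 11 such fits. Between *gdf6Y* and del9, edgeR and DESeq2 called 0 of the co-factors, ligases, MEK5-ERK5-MEF2 and SP genes. An unadjusted p below 0.05 in edgeR's test was reached by 1 co-factor and 1 SP gene. Of all genes of that mean count, edgeR called 0.933% higher and 1.03% lower in this comparison.

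Of 16 reported targets of KLF proteins, 3 rose and 0 fell with *gdf6Y* against EV, 2 rose and 0 fell against del9, and 4 rose and 1 fell with del9 against EV in edgeR's test. At an unadjusted p below 0.05, 1 was lower with *gdf6Y* against EV and 2 against del9, and DESeq2 called 1 and 0 lower. Among all genes whose mean count was 100 or more, 4.29% were called higher and 8.58% lower with *gdf6Y* against EV. These shares were 0.933% and 1.03% with *gdf6Y* against del9, and 12.3% and 9.4% with del9 against EV. *Cdkn1a*, which encodes the cell cycle inhibitor p21, had log2 fold changes of 0.25 with *gdf6Y* and 0.27 with del9 against EV (edgeR, adjusted p = 4.15e-04 and 2.66e-06), neither of which was called by DESeq2. *Ccnd1*, which encodes cyclin D1, and *Odc1* rose with del9 (log2 fold change 0.15 each, edgeR, adjusted p = 4.44e-07 and 2.21e-06). The medians were 0.021 and -0.028 for *gdf6Y* against EV and del9, and 0.057 for del9 against EV.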

How the data were processed

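TM4 cells were sequenced with strand-specific poly(A) libraries made from 300 ng total RNA. The authors tagged reads with unique molecular identifiers, aligned them with STAR 2.7.10a to GRCm39, collapsed PCR duplicates by UMI-tools, and assigned unique reads to Ensembl genes by strand with featureCounts 2.0.3. They deposited whole-number counts without normalization for 56748 genes. Samples were grouped by their titles. Symbols, positions and exonic lengths came from GENCODE of the same build, a later release than the one used for counting, and matched 56017 genes.

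A gene entered a comparison if any of its samples held 1 count or more. Counts were scaled with TMM and compared with edgeR 4.0.16 (R 4.3.3), 2 groups per model, with the quasi-likelihood test, Benjamini-Hochberg adjustment over all genes and a threshold of 0.05. The standard error is the size of the log2 fold change divided by the root of the F statistic. For normalized counts, each count was divided by its sample's effective library size and multiplied by the mean of that size over the 16 samples, 24649079. RPKM were computed from the exonic lengths. Depth was 21486850 to 26444903 counted reads. The steps were tested on simulated counts.

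The *Klf* genes and lists were chosen with earlier results of these data known. Named were the 10 genes, other KLF and SP genes, up to 4 called genes of smallest adjusted p per list, and the 5 genes most like *Klf10* by Pearson's r at a mean count of at least 100. Genes that a limit or a small count turns on were also named. Some genes named by this rule are not reported here.

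Replicate numbers were checked for pairing by correlating deviations from group means over 10065 genes. The numbers come from the sample titles. Same-numbered *gdf6Y* and EV samples correlated at 0.11 to 0.416, and *gdf6Y* and del9 samples at 0.220 to 0.381, above 0.1 in 5 of 5 pairs, so these samples were taken as paired by their numbers. EV replicate 6 has no partner and was dropped from fits with the block.

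The settings tried instead were DESeq2 1.42.0, its size factors or total counts for scaling, filterByExpr, a minimum of 10 counts per sample, a single model of all 3 groups, the replicate block, a correction for gene length, the block with that correction, and each replicate left out. The authors' samples numbered 6 of *gdf6Y* and del9 and the level of the plasmid's gene were not analysed here.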

Additional observations from a re-analysis of the deposited data

Results flagged for a closer look

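*Klf11* in replicate 3 of del9 lay apart from the other samples of its group. It had 274 normalized counts, while the other 4 had 291 to 297, and the gap to the nearest sample was 0.759 of the range of the group, above the critical value of 0.71 for 5 samples. This was 1 of 30 groups examined, and chance alone flags about 1 in 20, or 1.5 of 30. Without this sample, the log2 fold change of *Klf11* with del9 against EV was -0.16 and did not pass the threshold (adjusted p = 0.114 in edgeR's test).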

How the results depend on the processing

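*Klf10* passed the threshold in the same direction under every alternative, 20 against EV and 19 against del9. The adjusted p was larger in some than in the main fit. It was 0.00317 against EV and 0.0105 against del9 with filterByExpr (edgeR), and 2.91e-05 and 1.24e-04 with DESeq2. The standard error of *Klf10* against EV was 0.037 in the main fit, 0.049 with filterByExpr and 0.053 with DESeq2. With each replicate left out, its log2 fold change with *gdf6Y* was 0.25 to 0.31 against EV and 0.27 to 0.33 against del9, and with del9 against EV it was -0.055 to 0.0053. No called *Klf* gene changed sign under any alternative. The number of *Klf* genes called without 1 replicate was 1 to 3 with *gdf6Y* against EV, 1 against del9, and 3 to 5 with del9 against EV. With the gene length correction 1 member was called with *gdf6Y* against EV (*Klf10*) and 2 against del9 (*Klf10* and *Klf3*). With the replicate block, 2 were called against del9, as with the block and the length correction together. Over all genes, the count with *gdf6Y* against EV was 1338, and 2114 with the block. Against del9 it was 261, and 661 with the block, 639 with block and length correction, 81 with DESeq2, 45 with filterByExpr and 44 with at least 10 counts in every sample. Without 1 replicate, it was 794 to 1751 with *gdf6Y* against EV, 160 to 441 against del9 and 1692 to 2715 with del9 against EV. The cause of these changes was not tested, beyond fewer genes or samples entering some fits. *Klf11* passed the threshold with *gdf6Y* against EV under the block with the length correction (adjusted p = 0.0222 in edgeR's test).

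Same-numbered del9 and EV samples missed the criterion for pairing, since their deviations correlated above 0.1 in 4 of 5 pairs (0.0527 to 0.298). Their mean correlation was 0.212, and 2 of 5 correlated best with their own number. For samples of other numbers the mean was -0.0547, which is no independent baseline, since deviations within a group sum to 0. With the replicate block, all 5 *Klf* calls of del9 against EV were kept. Elsewhere, the block changed no *Klf* call other than those of *Klf7* and *Klf3*. At a mean count of at least 10 instead of 100, fewer pairs exceeded 0.1, namely 4, 4 and 1 of 5. Of 43 calls of other KLF and SP genes and of up to 4 called genes per list, 26 were kept under every alternative. Further calls of the lists, such as those of *Skil*, *Ccn2* and *Ier3*, were not checked in this way. Counts near 150, as in *Klf2*, limit the precision, with a standard error of 0.078 against 0.037 for *Klf10*.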
